A study of Mus musculus with 12 samples.

Results

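The potassium channel subunit genes described here are the 92 genes, of 55487 listed, whose symbol is Kcn followed by letters and a closing number. The rule used names and no measured value. It takes in pore-forming subunits and accessory subunits that bind them. Channel genes with other names, such as the Hcn genes, fall outside it. The RNA came from cultures described as cochlear glia, from mice at postnatal day 4 (P4) of a mixed C57Bl6 and FVB/N background. Its poly(A) fraction was sequenced in 12 libraries, 3 for each of 4 groups.

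Spheres were cells of the cochlear modiolus, pooled from 6–8 pups of both sexes. They were grown in suspension for 5–7 days with 20 ng/ml EGF, 10 ng/ml bFGF, 50 ng/ml IGF and 50 ng/ml heparan sulfate. The other 3 groups began as plated spheres and, per the labels, were analysed after 14 days of differentiation. SCDM held 50 ng/ml BDNF and 50 ng/ml NT3 in DMEM/F12. SCDM/FGF was the same medium with 100 ng/ml bFGF. FIBCL held 20 μM Forskolin, which activates adenylyl cyclase, 20 μM ISX9, the bromodomain inhibitor I-BET at 1 μM by the labels, 10 μM of the GSK3 inhibitor CHIR99021 and 1000 U/ml LIF. Its base was Neurobasal medium with bFGF, which the labels list at both 50 and 100 ng/ml, and BDNF and NT3 are not listed for it. Basal medium, growth factors and small molecules therefore differed together between FIBCL and SCDM, and their parts cannot be told apart. B27 and N2 supplements were common to all 4 media. No sort of the cells is described, so each library is a mixture. The labels call the 3 libraries of a group biological replicates. They do not say which dissections they came from, so the p-values measure the spread between these libraries.

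Potassium channels set the resting potential and end the action potential. Voltage-gated Kv subunits assemble as tetramers within a family. The Kv1 family acts at low threshold and along axons, the Kv3 family allows fast repeated firing, and the Kv7 family carries the M-current that restrains firing. Inward rectifiers and two-pore channels hold the membrane near the potassium equilibrium, and in glia they take up potassium released by neurons. BK, SK and IK channels open with calcium, and the Slack and Slick channels open with sodium. Silent Kv subunits form no channel of their own and modify Kv2 channels. Spiral ganglion neurons, the first neurons of the auditory pathway, are known for dense Kv1 and Kv3 currents that permit precise timing.

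The values below are scaled TPM. TPM, a relative transcript abundance within a library, is a level corrected for transcript length, so that genes can be compared. Each library was rescaled to a common level. Of the 92 members, 47 reached at least 1 TPM in at least 3 libraries and were tested. The other 45 were not tested, and the highest value of any of them was 1.98, of Kcnip2 in FIBCL library 3. Of these, 11 stayed under 0.1 TPM in every library, among them Kcnk16 and Kcnmb3, which were at 0 in all 12. A member was called at a limma adjusted p under 0.05 and a log2 fold change of at least 1. The log2 fold changes are differences of log2(scaled TPM + 1), which understate the change of genes with low levels. Kcna3, Kcnc1, Kcnc4 and Kcnk12 were among those that passed the limit on low values through FIBCL alone, and Kcnh1 passed through SCDM/FGF alone, so these genes had to differ. Kcnj15 and Kcnk6 passed through SCDM and SCDM/FGF alone, and Kcnt2 through every group but spheres. A further 12 members, such as Kcnn4, passed through every group but FIBCL. Their differences from the groups under the limit, and the p-values of these, depend in part on this limit. The counts of called members below are descriptions for this reason. In a bulk library, fewer cells of a type and less RNA per cell cannot be told apart. The files hold no read counts, so the depth behind a TPM value is unknown.

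The members lay on 19 chromosomes and all 92 were protein-coding genes in GENCODE M21 (GRCm38). The annotation was matched by gene identifier, since the sources used here do not give the authors' build. Several members are neighbours. Kcna1 (chr6:126640397-126646384) and Kcna6 (chr6:126708329-126740674) are 61.9 kb apart. Kcna3 (chr3:107036169-107038070) and Kcna2 (chr3:107101146-107115005) are 63.1 kb apart.

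RefSeq promoters on GRCm38.p6 were found for 67 of the 92 members, with 92 start sites. The 250 bases before the start are shown for 3 genes that were higher in FIBCL than in SCDM (Kcnc1, Kcnj4, Kcnmb4) and for 3 that were lower (Kcnk1, Kcnma1, Kcnn4), because these 6 are among the largest changes that have an entry. The capitals mark the CRE core TGACG or its reverse complement CGTCA, a sequence bound by CREB, the factor that acts downstream of cyclic AMP. The stretch ends at the base before the start, and strands are those of the gene.
Kcnc1 (chr7:46396218-46396467, plus strand): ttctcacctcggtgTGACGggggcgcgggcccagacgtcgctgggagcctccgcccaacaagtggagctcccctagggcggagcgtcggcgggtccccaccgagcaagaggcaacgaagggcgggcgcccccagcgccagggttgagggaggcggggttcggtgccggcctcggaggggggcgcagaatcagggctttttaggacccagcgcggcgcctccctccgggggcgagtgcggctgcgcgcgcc
Kcnj4 (chr15:79505242-79505491, minus strand): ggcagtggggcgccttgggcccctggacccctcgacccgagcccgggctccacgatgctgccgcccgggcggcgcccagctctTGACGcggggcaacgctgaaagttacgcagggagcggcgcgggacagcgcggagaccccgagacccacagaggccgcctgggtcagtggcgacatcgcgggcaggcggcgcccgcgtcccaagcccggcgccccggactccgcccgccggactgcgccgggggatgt
Kcnmb4 (chr10:116473524-116473773, minus strand): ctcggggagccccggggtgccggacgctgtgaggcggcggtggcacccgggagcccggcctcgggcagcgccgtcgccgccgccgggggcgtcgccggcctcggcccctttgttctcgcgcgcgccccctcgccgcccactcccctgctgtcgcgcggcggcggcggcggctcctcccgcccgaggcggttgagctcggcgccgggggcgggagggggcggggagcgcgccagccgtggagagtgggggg
Kcnk1 (chr8:125994852-125995101, plus strand): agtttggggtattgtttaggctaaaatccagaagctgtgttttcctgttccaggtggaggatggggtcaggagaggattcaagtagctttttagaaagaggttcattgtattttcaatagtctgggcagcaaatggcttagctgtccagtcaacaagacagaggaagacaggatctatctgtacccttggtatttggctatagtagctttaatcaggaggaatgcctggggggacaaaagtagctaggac
Kcnma1 (chr14:24004206-24004455, minus strand): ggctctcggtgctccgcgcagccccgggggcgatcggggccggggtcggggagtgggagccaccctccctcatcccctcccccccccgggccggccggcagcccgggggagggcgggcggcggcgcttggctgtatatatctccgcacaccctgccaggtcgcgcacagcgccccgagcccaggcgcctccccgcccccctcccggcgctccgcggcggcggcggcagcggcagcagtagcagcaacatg
Kcnn4 (chr7:24370013-24370262, plus strand): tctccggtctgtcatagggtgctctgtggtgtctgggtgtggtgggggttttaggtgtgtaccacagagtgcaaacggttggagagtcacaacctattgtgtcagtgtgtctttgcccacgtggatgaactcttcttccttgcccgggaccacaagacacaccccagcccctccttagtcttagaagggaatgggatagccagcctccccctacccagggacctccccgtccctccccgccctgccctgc

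The core was found at position −236 from the start of Kcnc1 and −167 from that of Kcnj4, and in none of the other 4 sequences. Its letters were in 15.2% of the 92 member promoters and in 17.8% of the 32851 promoters of the table, counting both strands and a 250-base window. The full CRE TGACGTCA, which holds the core, was in 0 member promoters and in 1.55% of the table. By base composition, the Kcnmb4 promoter was 83.6% G and C, the Kcnma1 promoter 79.2%, the Kcnj4 promoter 77.2% and the Kcnc1 promoter 74.4%. The Kcnn4 promoter was 58.8% and the Kcnk1 promoter 44.4%, and the latter held no CpG dinucleotide. A GC-rich promoter was thus present both among the genes that were higher and among those that were lower. The match of letters describes these windows and says nothing of binding.

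The makeup of the cultures differed between groups, and the values of the marker lists are given here because they stand beside every result. The summed level of 12 neuronal markers was 612–638 in FIBCL, 175–193 in spheres, 202–221 in SCDM and 106–132 in SCDM/FGF. Gap43 made up most of this sum outside FIBCL, with 157 ± 9.06 in spheres, 192 ± 10.4 in SCDM and 87.3 ± 10.9 in SCDM/FGF. The sum of 10 spiral ganglion neuron markers was 181–188 in FIBCL and 39.6–63.6 in the other 9 libraries. The 12 glial markers summed to 672–699 in spheres and 58.5–61 in FIBCL, with 353–405 for SCDM and 337–359 for SCDM/FGF. The 12 macrophage markers summed to 1872–2080 in SCDM and 2133–2315 in SCDM/FGF, but to 149–191 in spheres and 169–199 in FIBCL. Cd68 made up most of the FIBCL sum (164 ± 12.3, against 36.5 ± 5.1 in spheres). Of the 12 macrophage markers, 8 were called lower and 1 higher in FIBCL than in spheres, so the like sums hide different markers. The 10 mesenchymal and fibroblast markers reached 5819–6039 in SCDM and 5347–5717 in SCDM/FGF, 2643–2690 in spheres and 222–237 in FIBCL. The 8 mural cell markers gave 376–453 in SCDM, 149–159 in spheres, 104–134 in SCDM/FGF and 25.7–28.2 in FIBCL. The 6 endothelial markers gave 264–303 in SCDM/FGF, 109–110 in spheres, 42.8–51.2 in SCDM and 13–13.7 in FIBCL, where Cldn5 and Emcn were at 0. Emcn made up most of this sum outside FIBCL (248 ± 21.9 in SCDM/FGF). Melanocyte markers stayed at or under 9.57 and epithelial markers at or under 18.5 in all groups. Hair cell markers gave 45.5–46.9 in spheres, 38.5–47.9 for SCDM, 18.3–19.1 for SCDM/FGF and 6.04–6.49 for FIBCL, and Pou4f3, which defines hair cells, was at 0 in the first 3 of these groups. Spheres held the glial marker Sox10 (83.5 ± 1.55, SD, n = 3), but their mesenchymal sum exceeded their glial sum. The spheres were therefore not glia alone.

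The set of most abundant members differed between media. In spheres, Kcna6 led with 24.4 ± 1.1 scaled TPM (SD, n = 3), followed by Kcnh2 (11.3 ± 0.293), Kcnh6 (10.3 ± 0.698), Kcnip3 (10.2 ± 0.143) and Kcnma1 (9.19 ± 0.572). The order of Kcnh6 and Kcnip3 did not exceed their spread. Kcna6 encodes a Kv1 subunit, Kcnh2 and Kcnh6 encode ERG channels, and Kcnip3 encodes a calcium sensor that binds Kv4 channels. SCDM kept Kcna6 in the lead at 28.7 ± 1.01, with Kcnk1 next at 12.2 ± 0.401 and then Kcnma1 at 10 ± 1.85. In SCDM/FGF, Kcnh2 led at 9.37 ± 1.35, with Kcnh6 at 8.39 ± 0.655 and Kcnip3 at 7.42 ± 0.782, and these neighbours did not differ beyond their spread. In FIBCL, the 5 most abundant members included Kcna6 (15.9 ± 0.535), Kcnmb4 (14.3 ± 1.27) and Kcnh6 (13.1 ± 1.65), and the order of the last 2 did not exceed their spread. The heat map of tested members shows each of these levels by library.

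**Figure D1:**
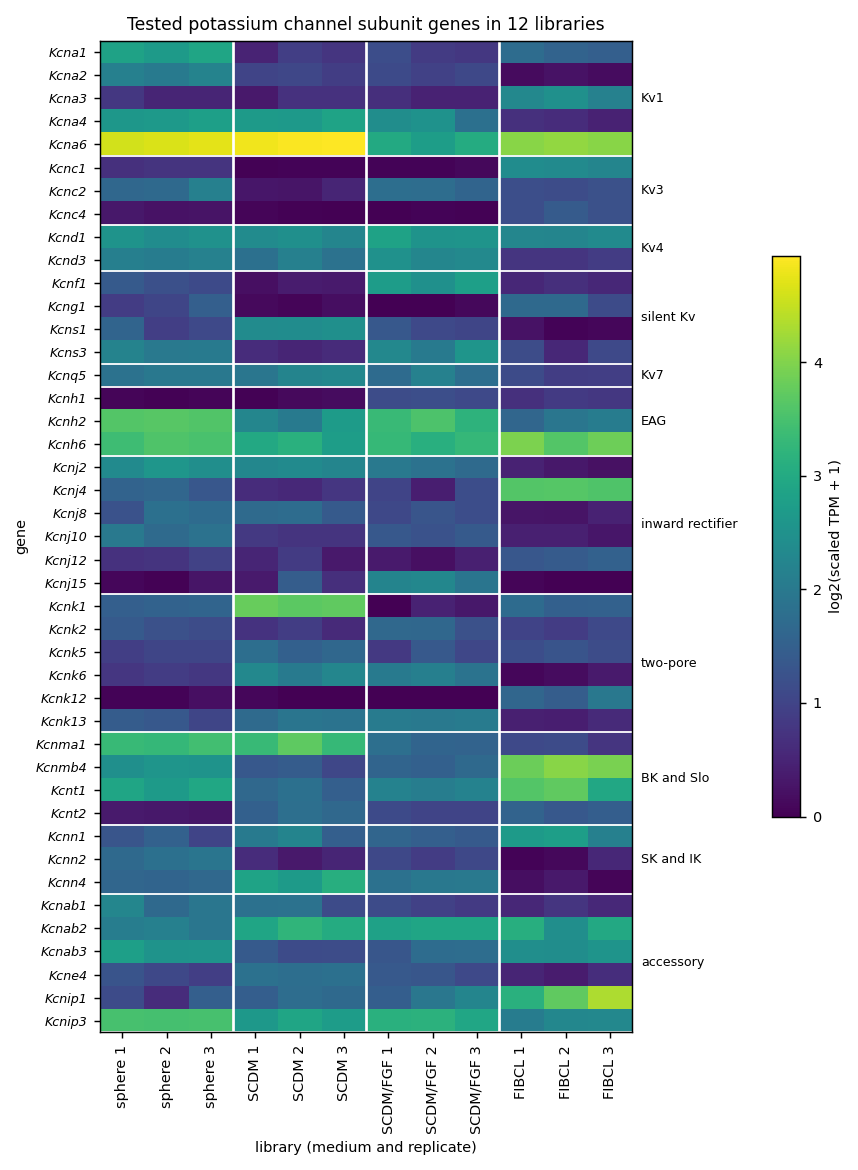
Level of 43 tested members, as log2(scaled TPM + 1), in the 12 libraries, with genes in rows by family and libraries in columns by medium. Kcnmb4 and Kcnj4 are brightest in the 3 FIBCL libraries, Kcna6 is brightest in spheres and SCDM, and Kcnk1 is bright in the 3 SCDM libraries.

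Summed over all 92 members, the FIBCL level was 200 ± 4.01 scaled TPM and that of spheres 163 ± 3.64 (SD, n = 3). It was 146 ± 6.6 for SCDM and 118 ± 4.34 for SCDM/FGF. This order depended on the rescaling. Without it the spheres led with 191, followed by FIBCL with 161, SCDM with 155 and SCDM/FGF with 118. The Kv1 family took 24.6% in spheres and 25% in SCDM, and 11% and 11.6% in SCDM/FGF and FIBCL. Two-pore channels held 15% in SCDM and at most 8.51% in the other media. These family sums are descriptions and were not tested.

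**Figure D2:**
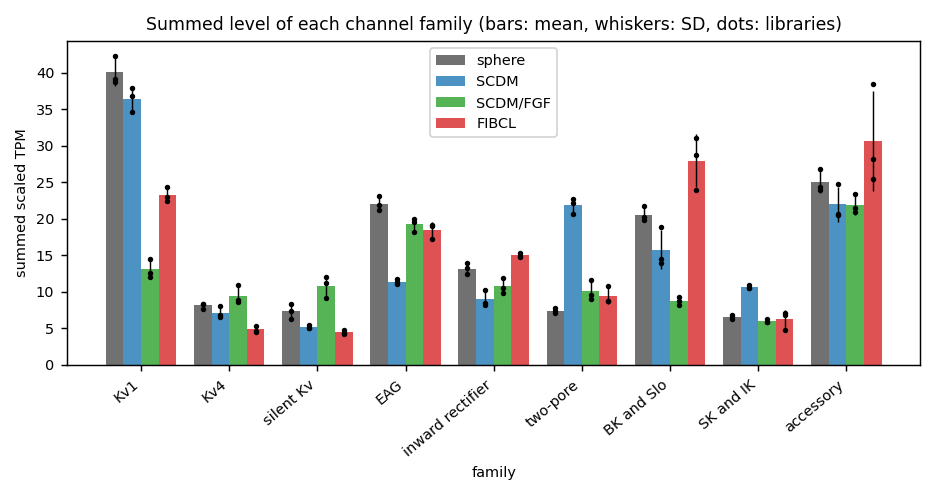
Summed scaled TPM of 9 channel families by medium, with bars for the mean of 3 libraries, whiskers for the SD and dots for libraries. The Kv1 bar stands at 40.1 in spheres and 36.4 in SCDM against 23.3 or less in the other media, and the two-pore bar at 21.9 in SCDM against 10.1 or less elsewhere.

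FIBCL was compared with SCDM to ask how the channel genes differ between cells induced with the small molecules and cells kept with neurotrophins alone. The Kv3 subunits Kcnc1 and Kcnc4, the inward rectifier Kcnj4 and the neuronal BK partner Kcnmb4 were higher in FIBCL. BK and IK pores, the TWIK two-pore channels Kcnk1 and Kcnk6 and the inward rectifiers Kcnj2 and Kcnj8 were lower. Of the 47 tested members, 13 were called higher and 12 lower. Of all 16016 genes tested, 13.2% were called higher and 16.1% lower, so both counts of members were above those shares (27.7% and 25.5%). The median log2 fold change of the tested members was −0.07, and it was −0.07 over all genes. The split depended on the rescaling. Without it Kcnab3 (0.94) was no longer called higher, and Kcna6 (−1.19) and Kcnab1 (−1.14) were called lower. More members were then lower than higher. With rescaling Kcnab1 lay just under the fold limit (−0.98 ± 0.206), and it was called at pseudocounts of 0.1 and 0.5 (−1.73 and −1.28).

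Among Kv3 subunits, Kcnc1, which drives fast spiking, was at 4.29, 4.14 and 3.74 in FIBCL and 0.019–0.0283 in SCDM (2.30 ± 0.088, adjusted p = 7.29e-10). Kcnc4, an A-type member, was at 1.28–1.66 in FIBCL and at or under 0.0475 in SCDM (1.25 ± 0.095). Kcnc2 was at 1.21–1.34 in FIBCL and 0.215–0.415 in SCDM, with a difference of 0.82 that was under the fold limit. It was called at pseudocounts of 0.1 and 0.5 (1.85 and 1.17).

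Among M-channel subunits, Kcnq5 fell from 2.81–3.88 in SCDM to 0.849–1.18 in FIBCL (−1.17 ± 0.141, adjusted p = 1.49e-05). Kcnq3 was not tested and stood at 0.645, 0.517 and 0.459 in FIBCL and at or under 0.326 elsewhere.

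Kcng1, a silent subunit, was at 2.21, 2.21 and 1.18 in FIBCL and at or under 0.142 in SCDM (1.37 ± 0.182). Kcns1, another silent subunit, was lower, at 0.0369–0.179 in FIBCL and 4.17–4.45 in SCDM (−2.28 ± 0.166, adjusted p = 1.84e-07). The 2 silent subunits called in this comparison therefore moved in opposite directions.

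Kv1 members moved in different directions. Kcna3, a delayed rectifier best known from lymphocytes and microglia, was at 3.52–4.53 in FIBCL and 0.257–0.634 in SCDM (1.73 ± 0.141, adjusted p = 4.89e-07). Kcna4, an A-type subunit, fell from 5.23–6.22 in SCDM to 0.394–0.609 in FIBCL (−2.13 ± 0.162, adjusted p = 2.76e-07). Kcna6 was at 15.6, 16.5 and 15.6 in FIBCL and 27.5, 28.9 and 29.5 in SCDM. Its groups did not overlap, but the log2 fold change of −0.81 ± 0.076 was under the fold limit, and without rescaling it was −1.19 and called. The antisense gene Gm26673 overlaps 39.6% of the exon bases of Kcna6 and was at or under 0.188 on average in every group. Kcna1 and Kcna2, the subunits of low-threshold currents in auditory neurons, were at 1.82–2.35 and 0.108–0.184 in FIBCL and 0.409–0.877 and 0.859–1.06 in SCDM. Their log2 fold changes of 0.89 and −0.80 had opposite signs and were not called, and both were called at a pseudocount of 0.5 (1.16 and −1.21). The neighbours Kcna3 and Kcna2 on chromosome 3 had log2 fold changes of opposite sign, and so had Kcna1 and Kcna6 on chromosome 6. In the Kv4 family, Kcnd3 fell from 2.52–3.41 in SCDM to 0.689–0.827 (−1.14 ± 0.108), Kcnd1 was at 3.71–4.16 in FIBCL and 3.72–4.47 in SCDM, and Kcnd2 was not tested and stayed at or under 0.381.

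Among calcium- and sodium-activated channels, the BK pore and its neuronal partner changed in opposite directions. Kcnma1, the pore, was at 1.12, 1.19 and 0.695 in FIBCL and 8.97, 12.1 and 8.91 in SCDM (−2.45 ± 0.138, adjusted p = 1.98e-08). Kcnmb4, the beta subunit common in brain, was at 13.1, 15.6 and 14.3 in FIBCL and 1.58, 1.69 and 1.07 in SCDM (2.66 ± 0.114, adjusted p = 1.85e-09). The FIBCL libraries were the lowest of the 4 groups for Kcnma1 and the highest for Kcnmb4, without overlap. The antisense genes Kcnmb4os1 and Kcnmb4os2 overlap 10.7% and 20.8% of the Kcnmb4 exon bases, and the latter was at 1.28 in FIBCL. Kcnn4, the IK channel of immune and secretory cells, was at 0.131, 0.258 and 0.0525 in FIBCL and 6.24, 5.41 and 7.51 in SCDM (−2.68 ± 0.118, adjusted p = 2.32e-09). This was the largest fall of the 47 tested members in this comparison. Kcnt1, the sodium-activated Slack channel, was at 11.3, 12.2 and 6.73 in FIBCL and 1.83–2.55 in SCDM (1.77 ± 0.178).

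Inward rectifiers showed 1 rise and 2 falls. Kcnj4, a strong inward rectifier of forebrain neurons, was at 11.3, 11.4 and 10.9 in FIBCL and 0.542, 0.485 and 0.717 in SCDM (2.95 ± 0.171, adjusted p = 2.58e-08). Kcnj2, a strong rectifier of muscle, vessel and many other cells, fell from 3.74–4.1 in SCDM to 0.171–0.382 (−1.96 ± 0.108, adjusted p = 1.61e-08). Kcnj8, the pore of the vascular ATP-sensitive channel, fell from 1.65–2.33 to 0.197–0.381 (−1.28 ± 0.159). Kcnj10, the channel by which glia buffer potassium, was at 0.236–0.358 in FIBCL and 0.672–0.77 in SCDM. Its log2 fold change of −0.38 was under the fold limit. Kcnj13 was not tested and stayed at or under 0.254, and Gigyf2 overlaps 49.1% of its exon bases.

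Of the two-pore channels, Kcnk1 (TWIK) was at 2.32, 1.87 and 1.89 in FIBCL and 12.7, 11.9 and 12.2 in SCDM (−2.13 ± 0.121, adjusted p = 2.12e-08). Its relative Kcnk6 fell from 3.1–3.95 to 0.0597–0.276 (−2.0 ± 0.114), and Kcnk13, known from microglia and macrophages, from 2.28–2.75 to 0.332–0.499 (−1.36 ± 0.119). Kcnk12, a close relative of Kcnk13 that is silent on its own, moved the other way and was at 1.73–2.91 in FIBCL and at or under 0.0666 in SCDM (1.65 ± 0.129). Kcnk2 was at 0.824–1.12 and 0.5–0.868, with overlapping values, and was not called. Kcnk9 was not tested and stayed at or under 0.0597.

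Accessory subunits also split. Kcnip1, a calcium sensor that binds Kv4 channels, was at 7.74, 12.2 and 19.0 in FIBCL and 1.76–2.4 in SCDM (2.08 ± 0.307, adjusted p = 7.91e-05). The 3 FIBCL libraries differed widely from each other but all lay above SCDM. Kcnab3, a Kv1 beta subunit, was at 4.37–4.85 and 1.18–1.65 (1.24 ± 0.138). Without rescaling its log2 fold change was 0.94 and the call was lost. Kcne4 fell from 2.42–2.59 to 0.295–0.564 (−1.30 ± 0.126). Kcnab2 was at 4.42–7.55 and 6.48–8.32, with overlapping values. Kcnip3 was at 3.19–3.94 and 5.17–6.49, a difference of −0.53 that was not called. Kcnip4 and Kcne1 were not tested and stayed at or under 0.835 and 0.183. In the ERG group, Kcnh2 was at 2.1–3.18 in FIBCL and 3.09–5.55 in SCDM, and Kcnh6 at 11.3–14.6 and 5.69–7.77 (−0.45 and 0.86, both under the fold limit).

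**Figure D3:**
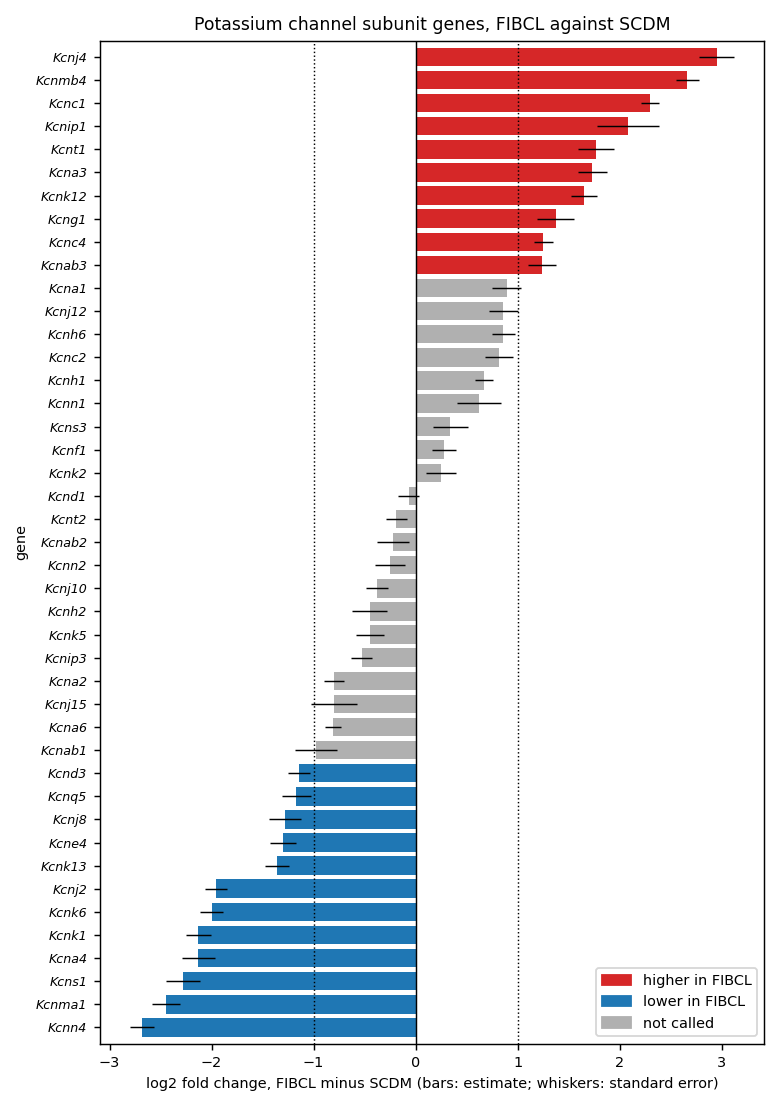
Log2 fold change of 43 tested members in FIBCL against SCDM, with whiskers for the standard error and dotted lines at the fold limit of 1. Bars run from 2.95 for Kcnj4 to −2.68 for Kcnn4, with 10 called higher, 12 called lower and the rest not called.

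Members that were lower in FIBCL than in SCDM are set here beside the markers of other cells, for this comparison only. The summed levels of macrophage, mural and mesenchymal markers were lower in FIBCL, as listed above, but single markers differed. Of 12 macrophage markers, 11 were called lower, such as Csf1r (105 ± 10.1 in SCDM, 0.334 ± 0.187 in FIBCL), and Cd68 was not called (197 ± 11.2 and 164 ± 12.3). Of 7 tested mural markers, 4 were lower, such as Acta2 (81.5 ± 15.6 and 0.151 ± 0.0646), and Myh11 (1.74) and Notch3 (1.11) were higher. Of 10 mesenchymal markers, 8 were lower, and Prrx1 (1.88) and Twist1 (1.18) were higher. The part of these cells in the lower levels of Kcnn4, Kcnk13, Kcnk6, Kcnma1 and Kcnj8 was not tested. Of 10 tested neuronal markers, 9 were called higher, such as Snap25 (0.0539 ± 0.0933 in SCDM, 37.6 ± 0.142 in FIBCL), and Gap43 was lower (192 ± 10.4 and 73.1 ± 3.79). Of 9 tested spiral ganglion neuron markers, 8 were higher, such as Tubb3 (11.5 ± 0.485 and 81.2 ± 3.72), and Ntrk3 was lower (12 ± 0.964 and 1.44 ± 0.243). The part of these cells in the members that were higher was not tested either.

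Against SCDM/FGF and against spheres, the other reference groups of the design, FIBCL was again higher in Kcnj4, Kcnmb4 and Kcnc1. The 3 comparisons share the FIBCL libraries, so their values are given side by side and none supports another. Against SCDM/FGF, 16 members were called higher and 11 lower, when 12.0% and 15.8% of all genes were. Without rescaling the split was 12 and 14. The median was −0.35 for the members and −0.05 for all genes. Against spheres, 12 were higher and 15 lower, when 12.5% and 15.5% of all genes were. Without rescaling the split was 8 and 18, and the medians were −0.27 and −0.06. Rescaling added 0.40 to the log2 fold changes of FIBCL against SCDM, 0.32 against SCDM/FGF and 0.55 against spheres.

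Kcnj4 differed by 2.75 from SCDM/FGF and by 2.09 from spheres, and Kcnc1 by 2.27 and 1.62. Kcnmb4 was 2.35 above SCDM/FGF and 1.41 above spheres, where it was at 4.5–4.96. Without rescaling the latter was 0.93 and under the fold limit. Kcnip1 was 1.83 and 2.65 above these groups. Kcna3 and Kcnk12 were also called higher against both groups (1.77 and 1.70, 1.68 and 1.58). Some calls near the fold limit rested on single libraries. Against SCDM/FGF, Kcnn1, an SK channel, was at 1.04 and was not called without SCDM/FGF replicate 3 (0.99), FIBCL replicate 1 (0.97) or FIBCL replicate 2 (0.93). Kcns1, at −1.03, was not called without SCDM/FGF replicate 1 (−0.93). Against spheres, Kcns1 at −1.07 was not called without sphere replicate 1 (−0.86) and Kcns3 at −1.15 without FIBCL replicate 2 (−0.97). Kcnc4 lay at the limit (1.0) and was at 0.95 without FIBCL replicate 2 and 0.98 without sphere replicate 2 or 3, and it also slipped just under the limit without any 1 of the SCDM libraries. Without rescaling, Kcnn1 (0.79), Kcnj12, an inward rectifier (0.90), and Kcnt1 (1.0) were no longer called against SCDM/FGF, and Kcnn1 (0.87), Kcnc4 (0.78) and Kcnt2 (0.90) no longer against spheres.

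The lower members had these values against each reference. Kcnma1 was 2.35 lower than in spheres on the log2 scale (−2.35 ± 0.138), but its difference from SCDM/FGF, where it was at 1.98–2.49, was −0.66 and not called. Kcnj2 differed by −1.52 from SCDM/FGF and −2.12 from spheres, and Kcna4 by −1.65 and −2.09. Kcnj10, with 2.27–2.99 in spheres, was −1.46 ± 0.104 against spheres (adjusted p = 1.63e-07) and −0.94 against SCDM/FGF. Kcna2, at 3.06–3.62 in spheres, was −1.94 against spheres, and Kcnh2 was −1.74. Kcnk1 overlapped with its sphere values of 1.83–2.0 (0.05 ± 0.121, not called) and was 1.33 above SCDM/FGF. Kcna6 was 1.16 above SCDM/FGF, and without rescaling this was 0.86 and under the fold limit. Against SCDM/FGF the largest falls were those of Kcnj15 (−2.11), Kcnf1 (−2.07) and Kcnk6 (−1.81).

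**Figure D4:**
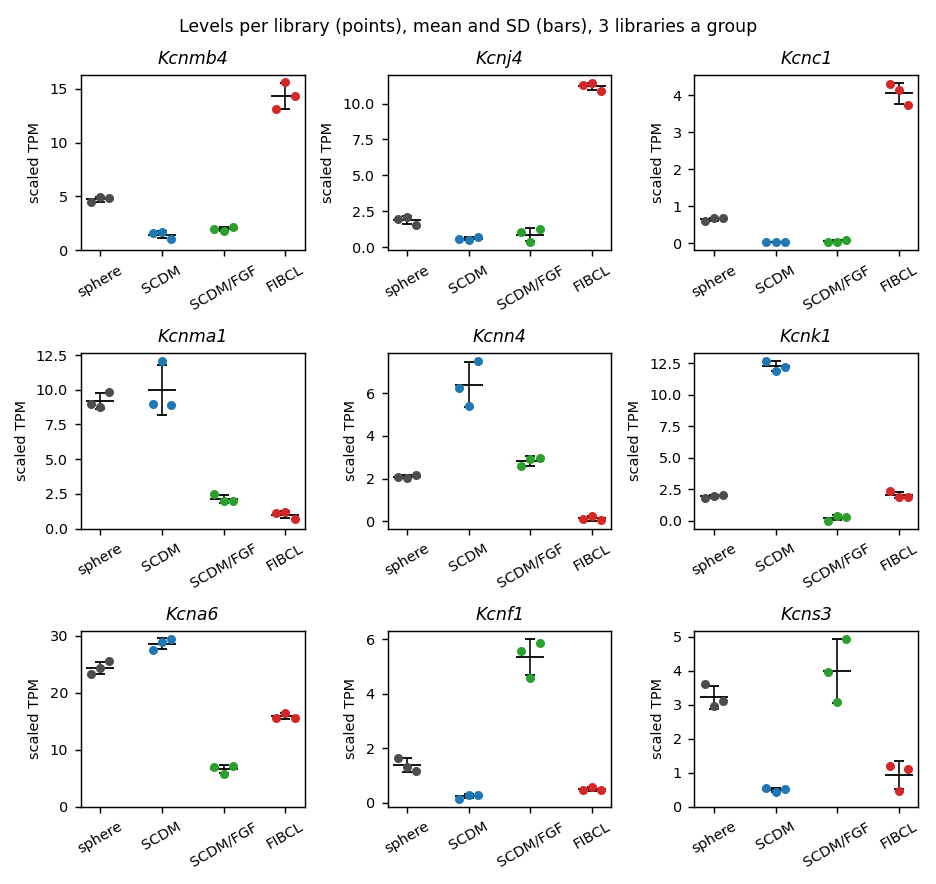
Scaled TPM of 9 members by medium, with a point for each library and bars for the mean and SD of 3 libraries. Kcnmb4, Kcnj4 and Kcnc1 stand highest in FIBCL, Kcnma1 is high in spheres and SCDM, Kcnn4 and Kcnk1 peak in SCDM, Kcna6 is lowest in SCDM/FGF, Kcnf1 is highest in SCDM/FGF, and Kcns3 has its lowest mean in SCDM, where it overlaps with FIBCL.

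SCDM was compared with spheres for the change over 14 days of plated culture. EGF, bFGF, IGF and heparan sulfate were removed, neurotrophins were added and suspension gave way to plating, and these cannot be told apart. The same holds for SCDM/FGF against spheres, where bFGF was kept at a higher dose. More members were lower than higher. In all, 12 were called lower and 5 higher, when 5.46% of all genes were called lower and 6.94% higher. The members' median was −0.19 and that of all genes −0.01. Kcna1 fell most, from 6.13, 5.46 and 6.49 in spheres to 0.409, 0.877 and 0.689 in SCDM (−2.09 ± 0.139, limma adjusted p = 2.7e-07). Kcns3 (−1.49), Kcnc2 (−1.46), Kcnab3 (−1.39) and Kcnn2 (−1.31), an SK channel, were the next. Kcnh2, Kcnmb4, Kcnt1, Kcna2, Kcnj10 and Kcng1 were also lower (−1.28 to −1.01). Kcng1 was no longer called without sphere replicate 3 (−0.82), without SCDM replicate 2 (−0.97) or with quantile normalization (−0.99).

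Kcnk1 rose most, from 1.83, 1.91 and 2.0 in spheres to 12.7, 11.9 and 12.2 in SCDM (2.18 ± 0.121, adjusted p = 6.15e-08). Kcnk6 rose by 1.37, Kcnt2, the sodium-activated Slick channel, by 1.34, Kcnn4 by 1.25 and Kcns1 by 1.21. Macrophage marker sums were 149–191 in spheres and 1872–2080 in SCDM, and their part in the rise of Kcnk6 and Kcnn4 was not tested.

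In SCDM/FGF against spheres, 4 members were called higher and 8 lower, when 7.39% and 4.73% of all genes were. The medians were −0.25 for members and −0.02 for all genes. Kcnj15, an inward rectifier, rose from 0.0262–0.21 to 2.77–3.85 (2.01 ± 0.228, adjusted p = 2.24e-05). No sphere library reached the limit on low values for Kcnj15. Kcnf1, a silent subunit, rose by 1.42, Kcnk6 by 1.18 and Kcnh1, an EAG channel of brain, by 1.08. Kcna1 fell by 1.87, Kcna6 by 1.74, Kcnma1 by 1.69 and Kcnk1 by 1.28. Kcng1, Kcna2 and Kcnab3 were also lower, with −1.10 to −1.01. Of these, Kcng1 was not called without sphere replicate 3 (−0.91). Kcnab3 was not called without sphere replicate 1 (−0.93) or SCDM/FGF replicate 1 (−0.86).

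SCDM/FGF and SCDM differ by bFGF, and their direct comparison tests whether the changes from spheres differed between these media. In SCDM/FGF, 6 members were called higher and 4 lower, when 5.73% and 4.04% of all genes were. The median was 0.07 for members and −0.02 for all genes. The largest difference was in Kcnk1, with 0.0, 0.382 and 0.244 in SCDM/FGF and 12.7, 11.9 and 12.2 in SCDM (−3.47 ± 0.121, limma adjusted p = 1.66e-09). Kcnk1 was therefore higher than in spheres in one control medium and lower in the other. Kcna6 was at 6.93, 5.73 and 7.21 in SCDM/FGF and 27.5–29.5 in SCDM (−1.96 ± 0.076, adjusted p = 3.42e-09). Kcnma1 was at 2.49, 2.0 and 1.98 against 8.91–12.1 (−1.79 ± 0.138, adjusted p = 1.02e-06). Kcns1 was at 1.04–1.58 against 4.17–4.45 (−1.25 ± 0.166).

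The members that were higher with bFGF included the silent subunits Kcnf1 and Kcns3. Of the other tested silent subunits, Kcns1 was lower, as given above, and Kcng1 was not called (−0.10). Kcnf1 was at 5.58, 4.58 and 5.85 in SCDM/FGF and 0.143, 0.289 and 0.283 in SCDM (2.35 ± 0.118, adjusted p = 2.89e-08). Kcns3 was at 3.96, 3.08 and 4.95 and at 0.542, 0.429 and 0.528 (1.72 ± 0.173). Kcnc2 was at 2.43, 2.4 and 2.0, close to the 2.12–3.41 of spheres, and at 0.215–0.415 in SCDM (1.35 ± 0.138). Kcnj15 differed by 1.31 ± 0.228, and its 3 SCDM values of 0.285, 1.73 and 0.595 were widely spread. Kcnh1 and Kcnh2 both differed by 1.03. Kcnh1 was not called without SCDM replicate 1 (0.99). Kcnh2 was not called without SCDM replicate 1 (0.99), SCDM replicate 2 (0.88) or SCDM/FGF replicate 2 (0.94), or without rescaling (0.96). Mural marker sums were 376–453 in SCDM and 104–134 in SCDM/FGF and Acta2 was 81.5 ± 15.6 and 6.09 ± 1.1. Rgs5, a marker of pericytes, went the other way (log2 fold change 2.55 ± 0.104). The part of mural cells in the difference of Kcnma1, a channel of smooth muscle among other tissues, was not tested.

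**Figure D5:**
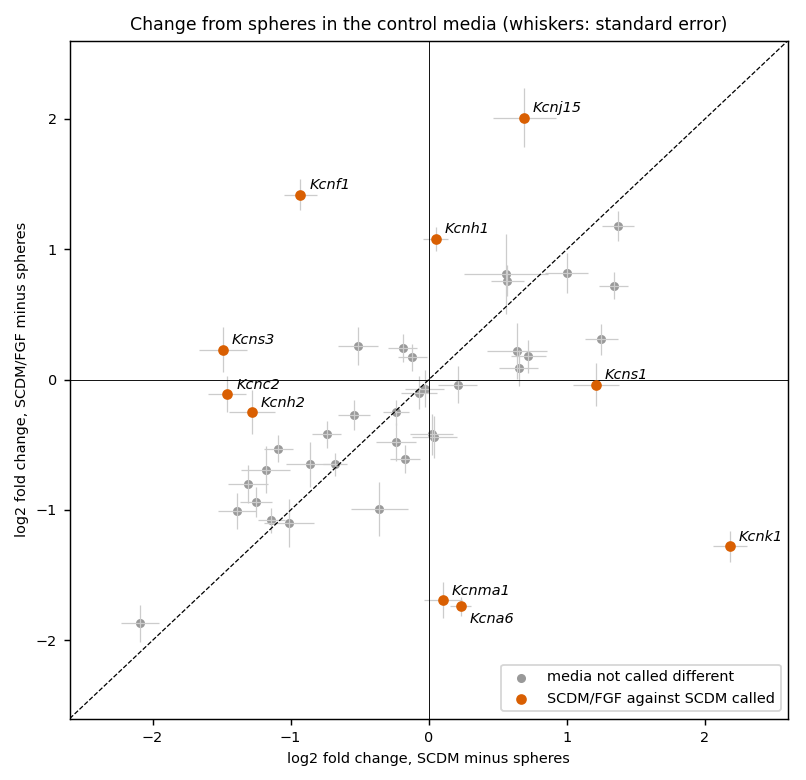
Log2 fold change from spheres of 43 tested members in SCDM (horizontal axis) and in SCDM/FGF (vertical axis), with whiskers for the standard error. Both axes share the sphere libraries. The 10 members called different between the media are named, with Kcnk1 at 2.18 and −1.28 and Kcnf1 at −0.93 and 1.42 on opposite sides of 0.

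Partners of potassium channels outside the naming rule were taken from a fixed list of 40 genes, of which 35 were tested. Between FIBCL and SCDM, 8 were called higher and 8 lower, when 13.2% and 16.1% of all genes were. Their median was 0.21. The hyperpolarization-activated channel Hcn2 was at 21.1 ± 0.416 with FIBCL and 0.841 ± 0.15 with SCDM (log2 fold change 3.59 ± 0.094). Hcn3 was at 5.07 ± 0.844 and 0.352 ± 0.0511. Abcc8, the sulfonylurea receptor that joins Kcnj11 in ATP-sensitive channels, was at 10.6 ± 0.385 in FIBCL and listed at 0 in SCDM. Kcnj11 itself, chosen after its values were seen, was not tested and was at 0.956, 0.652 and 0.905 in FIBCL and at or under 0.109 elsewhere. Abcc9, the partner of Kcnj8, was at 0.282 ± 0.071 and 1.55 ± 0.0111 (−0.99, under the fold limit). Adam22, a Kv1-associated axonal protein, rose by 2.52, and Lgi3 and Cntn2 by 1.81 and 1.95. Lrrc38, a gamma subunit of BK channels, rose by 1.95, and Akap5, which anchors kinases to M-channels, by 1.23. Lgi4, a Schwann cell ligand, fell by 3.57, Adam23 by 2.84 and Dpp10, a Kv4 partner, by 2.59. Nalcn (−1.85), Dlg2 (−1.76), Cntn1 (−1.59), Cntnap2 (−1.11) and Lgi2 (−1.05) were the other 5 that fell.

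Over the other comparisons, the same list gave 9 higher and 7 lower in FIBCL against SCDM/FGF, and 8 and 8 against spheres. It gave 4 and 4 in SCDM against spheres, 2 and 2 in SCDM/FGF against spheres, and 4 and 3 in SCDM/FGF against SCDM. Of these last, Ank3, which anchors Kv7 channels at the axon initial segment, was at 101 ± 8.5 in spheres, 19.9 ± 2.75 in SCDM and 52.3 ± 7.88 in SCDM/FGF (1.35 ± 0.114 between the last 2 media). It was at 19.5 ± 1.04 in FIBCL, a difference of −0.02 ± 0.114 from SCDM that was not called.

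Of a fixed list of 12 pump and cotransporter genes, 4 were called higher and 3 lower in FIBCL than in SCDM, when 13.2% and 16.1% of all genes were. The shares of all genes in the other comparisons are those given above. Slc12a5, the neuronal potassium-chloride cotransporter, was at 52.9 ± 2.5 in FIBCL and 0.647 ± 0.281 in SCDM (5.05 ± 0.147, limma adjusted p = 7.57e-11). Slc12a9 (1.45) was also higher, and Slc12a2 (−1.42) and Atp1b2 (−1.22) lower. In the other comparisons 3 were higher and 2 lower in FIBCL against SCDM/FGF, and 3 and 4 against spheres. In SCDM against spheres the calls were 2, both lower. In SCDM/FGF, 1 was called against spheres and 2 against SCDM, all higher, and Atp1b2 was among the latter (1.69).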

How the data were processed

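The authors prepared TruSeq poly(A) libraries, trimmed paired reads and, by the submitters' processing notes, used TopHat, Cufflinks and RSEM. They deposited TPM values with 2 decimals. The genome build is not given in the sources used here. No column of per-sample values was left unused.

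The deposited TPM of a library were divided by 1 factor, the trimmed mean (30% off either end) of its log2 ratios to the 12-library average, over the 8434 genes that reached 5 TPM everywhere. The offsets were −0.392 to −0.257 in FIBCL and 0.196 to 0.253 in spheres. The listed TPM summed to 899295–911076 in FIBCL and 982067–994845 elsewhere, and 21625–22281 genes were above 0. Replicates correlated at r of 0.983–0.985 across genes, and at most 0.38% of genes above 0 had identical values in a pair. The 16016 genes with at least 1 deposited TPM in at least 3 libraries were tested as log2(scaled TPM + 1) in limma 3.58.1 (R 4.3.3), in one model of 4 groups with 8 residual degrees of freedom and 6 comparisons, with Benjamini-Hochberg adjustment in each. The script was tested on simulated data. Tables and plots used Python 3.11.15, pandas 2.3.3 and matplotlib 3.10.9.

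The members and lists (partners, pumps, and markers of 10 cell types) were chosen with earlier results of these data known. Named members were the called members with the largest changes (up to 15 higher and 12 lower in FIBCL against SCDM, 5 each way elsewhere), the 5 highest per group, and a fixed set of textbook genes. Other members, such as Kcnd1, Kcnj3 and Kcnip2, were named after their values were seen, to complete a family or spell out a count. Alternatives covered the scaling, pseudocount, limit on low values, fold limit, which libraries entered the model, a block for the replicate number, and each library left out with the tested genes kept. Certain members and other genes of the lists are not reported here by name, and the plots leave them out. Counts and sums cover them.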

Additional observations from a re-analysis of the deposited data

Results flagged for a closer look

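The 10 members below differed between the changes from spheres in SCDM/FGF and in SCDM, as tested by the direct limma comparison of the 2 media, and both changes share the sphere libraries. The change in SCDM/FGF minus that in SCDM was −3.47 for Kcnk1, −1.96 for Kcna6, −1.79 for Kcnma1 and −1.25 for Kcns1 on the log2 scale. It was 1.03 for Kcnh1, 1.03 for Kcnh2, 1.31 for Kcnj15, 1.35 for Kcnc2, 1.72 for Kcns3 and 2.35 for Kcnf1. Kcnk1 moved in opposite directions from spheres in the 2 media (2.18 in SCDM and −1.28 in SCDM/FGF), and Kcnf1 was at −0.93 in SCDM, which was not called, and 1.42 in SCDM/FGF. With 3 libraries a group, no test for single outlying libraries was made.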

How the results depend on the processing

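Of 1951 alternative values for 83 results on the 42 named members that were tested, 1906 kept their direction and their side of the threshold, 31 lost a call, 14 gained one and 0 changed direction. Of the 31, 25 came from a log2 fold limit of 1.5 and 4 from leaving out a library. Of the 83 results, 73 were called, and these were picked for the size of their change, which favours stable calls. Calls outside the 83 that were lost without a single library, such as that of Kcnc4 against spheres, are given above and not counted here. Counts of called members, higher then lower, are given next. With no fold limit they were 21 and 20 for FIBCL against SCDM, 23 lower against SCDM/FGF, 23 lower against spheres, 12 and 19 for SCDM against spheres, 9 and 22 for SCDM/FGF against spheres, and 15 and 12 for SCDM/FGF against SCDM. With a fold limit of 1.5 they were 7 lower for FIBCL against SCDM, 9 higher against SCDM/FGF, 6 lower against spheres, 1 and 1 for SCDM against spheres, 1 and 3 for SCDM/FGF against spheres, and 2 higher for SCDM/FGF against SCDM. Requiring at least 5 TPM in 3 libraries, which leaves fewer genes, gave 7 and 4, 8 and 3, 5 and 6, 2 and 5, 0 and 5 (limma, with the 4 higher members among those removed), and 1 higher, in the same order. With a pseudocount of 0.1 there were 19 lower for FIBCL against SCDM/FGF (17 at 0.5), 9 higher for SCDM against spheres, and 7 and 16 for SCDM/FGF against spheres. Smaller pseudocounts stretch the differences of low genes.

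With 1 library left out, the counts were 13 and 12–13 for FIBCL against SCDM, 15–16 and 11–12 against SCDM/FGF, 11–12 and 14–16 against spheres, 5–6 and 11–12 for SCDM against spheres, 4–5 and 6–9 for SCDM/FGF against spheres, and 4–6 and 4–5 for SCDM/FGF against SCDM. The summed level ranged over 197–206 for FIBCL, 159–167 for spheres, 141–149 for SCDM and 116–121 for SCDM/FGF. Without rescaling it was 191 (spheres), 161 (FIBCL), 155 (SCDM) and 118 (SCDM/FGF). With the replicate number as a block, the counts were 13 and 12 for FIBCL against SCDM and equal to those without the block in the other 5 comparisons. No effect shared by libraries of the same number was visible. Deviations from group means correlated at −0.121 to 0.098 in 18 same-number pairs and at −0.073 to 0.12 in 36 other pairs. With 3 libraries a group, this check cannot tell whether libraries shared a dissection. The values carry no depth, so the precision of levels under 1 TPM cannot be given.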

Other observations

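Gene spans, from start to end in the annotation, had a median of 42.2 kb in the 13 members that were higher in FIBCL than in SCDM, 13.5 kb in the 12 that were lower, 45.6 kb in the 22 tested members that were not called and 20.6 kb in the 45 that were not tested. The ranges overlapped (1.9–364 kb and 3.27–725 kb for higher and lower), and no test was made.

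Among members that were not tested, Kcnn3, an SK channel, was at 0.818, 1.12 and 1.26 in SCDM, 1.15, 0.972 and 0.866 in FIBCL and 0.254–0.656 in spheres and SCDM/FGF. Kcnj3, a G protein-gated inward rectifier, was at 0.738 or more in spheres, 0.345–0.626 in SCDM/FGF, 0.105–0.14 in SCDM and at or under 0.0492 in FIBCL. Kcnip2 was at 1.3, 1.17 and 1.98 in FIBCL and at or under 0.662 elsewhere. These 3 genes were chosen after their values were seen.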
